A study of Mus musculus with 9 samples.

Results

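Transcript levels of 10 genes of pyroptosis and necroptosis were followed in the tumour-bearing mouse omentum after transfer of T cells that carried IL-12 mRNA. The genes were taken by symbol, from a list chosen with earlier results of these data known. The list holds Nlrp3, Aim2, Pycard, Casp1, Casp4, Gsdmd, Casp8, Ripk3, Mlkl and Zbp1. These are 10 of the 55359 genes counted, and all 10 were among the 17123 genes with enough counts to be tested.

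Pyroptosis is a lytic form of cell death. Sensor proteins such as NLRP3 and AIM2 assemble an inflammasome with the adaptor ASC, encoded by Pycard, which activates caspase-1. Caspase-1, or a caspase that binds bacterial lipopolysaccharide and is encoded by Casp4 in the mouse, cuts gasdermin D so that it forms pores in the plasma membrane. Necroptosis is lytic too: the kinase RIPK3 phosphorylates MLKL, which then breaks the membrane. Caspase-8 holds this route in check, and ZBP1, a sensor of Z-form nucleic acids, can start it. Several of these genes are known targets of interferons. Cleavage, phosphorylation and death itself were not measured here, only the transcripts.

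The 9 mice were C57BL/6, 7 to 10 weeks old, and all had received 500000 B16-OVA cells, a mouse melanoma line that expresses ovalbumin, into the peritoneal cavity. On day 6 a group of 3 received saline (PBS), by a route that the sample titles do not give. The other 2 groups of 3 received OT-I T cells, which recognise an ovalbumin peptide and had been electroporated with IL-12 mRNA, into the peritoneal cavity (IP) or into a vein (IV). Whole omenta, a fatty fold of the abdominal lining, were taken 18 h later for poly(A) RNA sequencing. No group received T cells without the IL-12 mRNA, so the cells and the cytokine cannot be told apart. Libraries are named by group and mouse number, which runs from 1 to 3 in PBS and from 2 to 4 in IP and is 1, 2 or 4 in IV.

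Depth ran from 7379798 counts in IV 2 to 44626843 in PBS 3. IV 4 stood apart from the rest of its group: over the 17123 genes, which are not independent replicates, its log2 levels correlated at r = 0.985 with PBS 3 and at 0.961 with IV 1 and 0.968 with IV 2. Member results on the IV group are therefore given with and without it. Summed transcripts of 9 pancreatic acinar genes reached 15601 CPM (counts scaled to library size) in IP 4, 20084 in IV 1 and 3621 in IV 2, against 9.43 to 185 in the other 6 libraries, with Amy2a5 at 0 in all of PBS. None of the 8 of them tested was called in any comparison (edgeR). Their median log2 fold change was still 10.87 in IP and 11.99 in IV against PBS, where 6 and 8 had an unadjusted p below 0.05. In IP against IV the median was -1.07, with 0 genes at that p. Transcripts of 5 adipocyte and 5 mesothelial genes were present in every group, as was the melanoma list (13441 to 28132 CPM summed over 7 genes).

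After IP transfer every one of the 10 genes was called higher than after PBS, and after IV transfer 9 of 10 were. In the test of IP against PBS, run with edgeR over all 17123 genes and called at an adjusted p below 0.05, 10 of 10 members were higher, where 18.7% of all genes tested were called higher and 14.2% lower. Their log2 fold changes ran from 0.45 for Casp8 to 3.57 for Zbp1 with a median of 2.33, beside a median of 0.02 over all genes. For IV against PBS, 9 of 10 were called higher (all genes: 10.4% higher, 5.66% lower), with a median of 1.83 beside 0.043, and Casp8 was not called. Every library of IP, and every library of IV, exceeded the highest PBS library for all 10 genes. Groups that did not overlap in that direction made up 28.4% of all genes for IP and 16.5% for IV. Both comparisons use the same 3 PBS libraries, so they are not independent of each other. In bulk tissue, more cells of a type and more RNA per cell cannot be told apart.

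**Figure D1:**
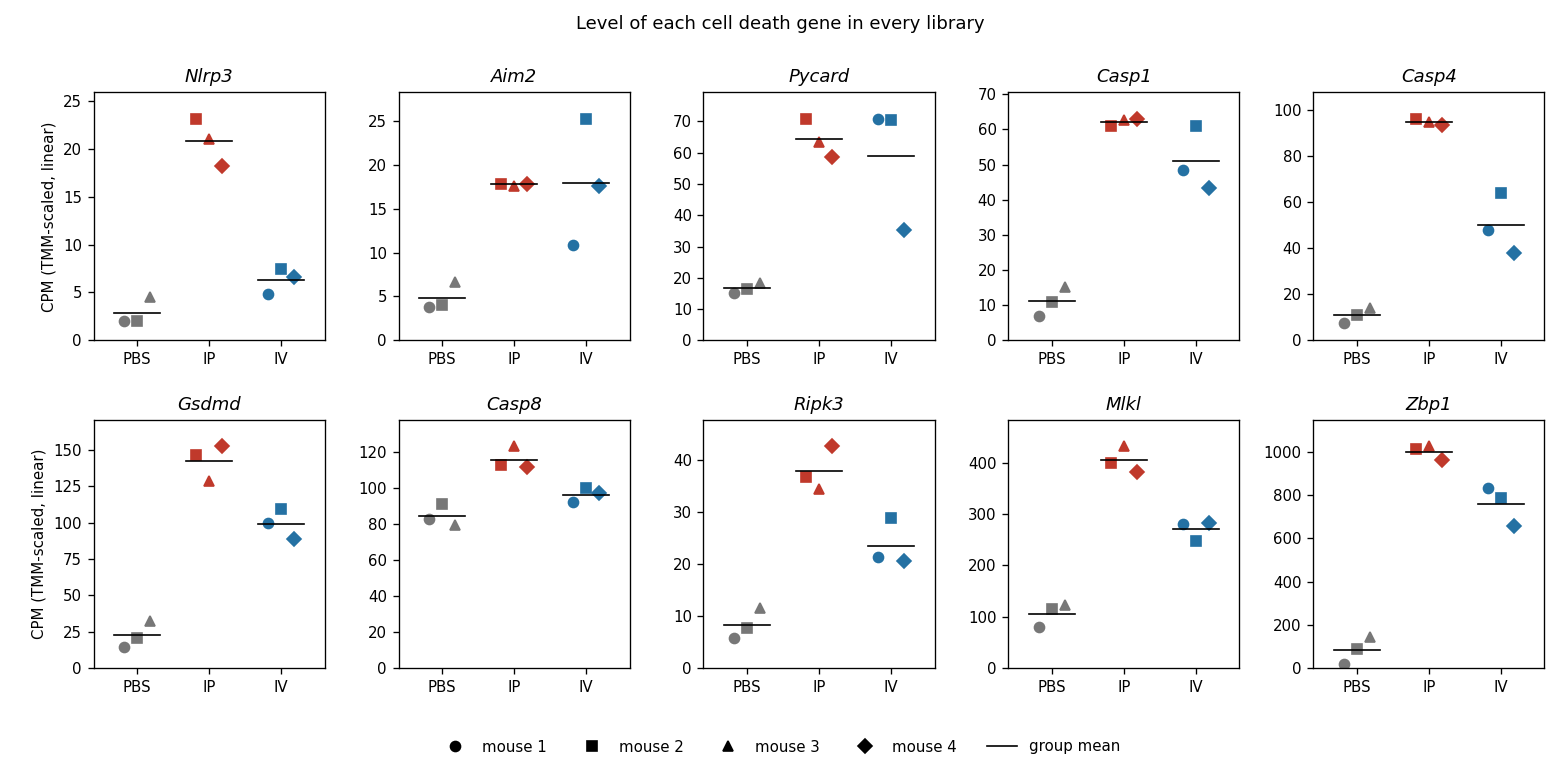
CPM (scaled by TMM, linear axis from 0) of each of the 10 genes in every library, with 1 panel a gene, 1 symbol a mouse and a line at the group mean of 3 libraries. All IP and IV points lie above all PBS points in the 10 panels, by a small margin for Casp8.

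Between the routes the difference was narrower. IP exceeded IV in 3 of 10 members at the same threshold (Nlrp3, Casp4 and Mlkl), where 5.93% of all genes were called higher and 4.47% lower in IP. The median of the 10 was 0.461 on the log2 scale, and that of all genes was -0.016. For 7 of 10 members the 3 IP libraries lay above the 3 IV libraries, a pattern seen in 17.9% of all genes. Casp1, Aim2 and Pycard overlapped.

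**Figure D2:**
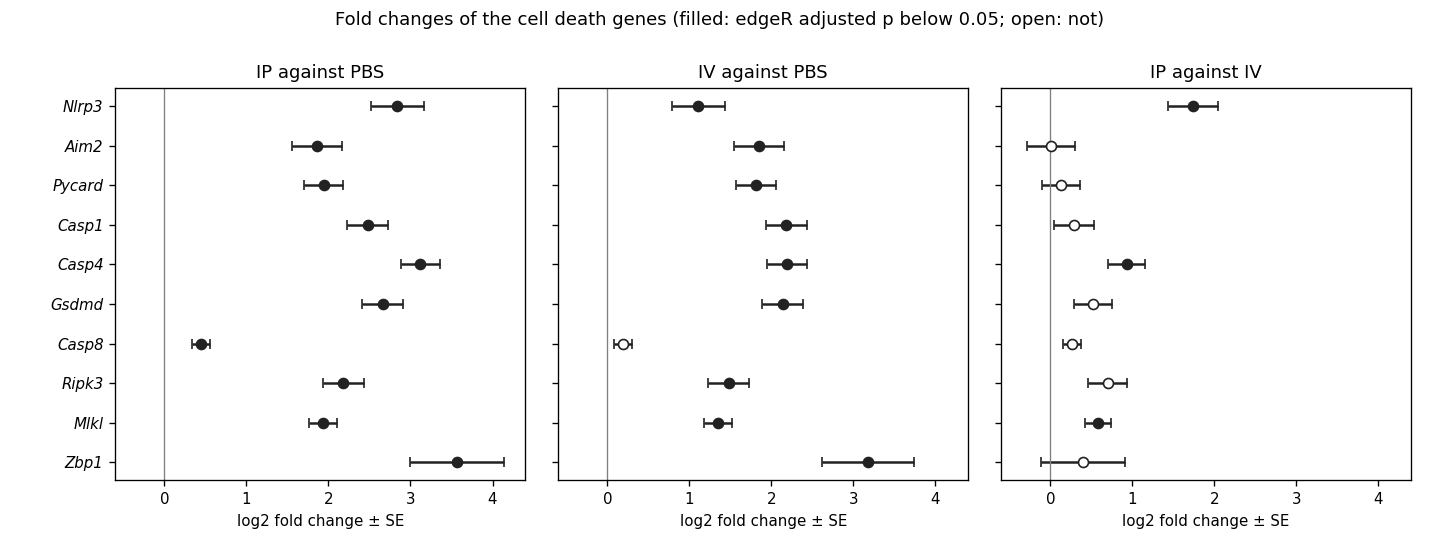
Log2 fold change ± SE of each gene (edgeR, 3 libraries a group) for IP against PBS, IV against PBS and IP against IV, with filled points for an adjusted p below 0.05 and open points for the rest. Values fall to the right of 0 throughout, and filled points number 10, 9 and 3 in the 3 panels.

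The sensors of the inflammasome differed in how they responded to the route. Nlrp3, which senses membrane and ion disturbance, stood at 1.99, 2.03 and 4.53 CPM in PBS 1, 2 and 3. It reached 23.1, 20.96 and 18.2 CPM in IP 2, 3 and 4, and 4.80, 7.47 and 6.64 CPM in IV 1, 2 and 4. The IP libraries were the highest by far, and the lowest IV library lay only just above the highest PBS library. Nlrp3 rose by 2.84 ± 0.32 (log2 fold change ± SE, edgeR adjusted p = 1.04e-04) in IP against PBS and by 1.74 ± 0.31 (adjusted p = 0.00661) in IP against IV. In IV against PBS the change was 1.11 ± 0.32 (adjusted p = 0.0388). That last call was lost when any of PBS 1, PBS 2, IP 2, IP 3, IP 4, IV 2 or IV 4 was left out, with edgeR adjusted p-values up to 0.148, and without IV 4 the change was 1.03 (adjusted p = 0.0631). The IP against IV call held in all 19 alternative settings, with values from 1.44 to 1.85.

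Aim2, a sensor of cytosolic DNA, followed another pattern. Its levels were 3.85, 4.07 and 6.69 CPM in PBS, 17.8, 17.6 and 17.8 in IP, and 10.9, 25.2 and 17.5 in IV. The IP libraries were nearly equal, while IV 1 lay below them and IV 2 above. It rose by 1.86 ± 0.30 in IP (edgeR adjusted p = 8.73e-04) and by 1.85 ± 0.30 in IV (adjusted p = 0.00402; 1.84 without IV 4) against PBS. The difference between the routes was 0.01 ± 0.29 (adjusted p = 0.988), and 0.02 without IV 4. That difference changed sign with single choices, as without IV 1, where it was -0.25. Within a library the ratio of Nlrp3 to Aim2 CPM was 0.518, 0.5 and 0.678 in PBS, 1.30, 1.19 and 1.02 in IP, and 0.441, 0.296 and 0.379 in IV. IP lay above both other groups and IV below PBS, each with an exact two-sided permutation p of 0.1, the smallest that 3 against 3 allows. Neither ratio says how much of each protein was present.

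Pycard, the adaptor that links both sensors to caspase-1, had 15.0, 16.6 and 18.5 CPM in PBS. It had 70.9, 63.3 and 58.8 CPM in IP and 70.9, 70.4 and 35.2 in IV. IV 4 lay between PBS and the other treated libraries. The rise was 1.94 ± 0.24 in IP (edgeR adjusted p = 1.65e-04) and 1.81 ± 0.24 in IV (adjusted p = 0.00208), or 2.07 in IV without IV 4. IP and IV differed by 0.13 ± 0.23 (adjusted p = 0.774), and by -0.13 without IV 4. Of the exons of Pycard, 12.8% overlap those of Gm45205 on the opposite strand, which had 25 counts in all libraries together.

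Of the inflammatory caspases Casp1 and Casp4, Casp4 had the larger fold change after IP transfer, and after IV transfer their fold changes were nearly equal. Casp1, which matures IL-1beta and IL-18 and cuts gasdermin D, stood at 7.05, 11.0 and 15.3 CPM in PBS, 61.0, 62.6 and 63.0 in IP, and 48.5, 61.1 and 43.3 in IV. IP and IV overlapped through IV 2, and both cleared PBS. Its rise was 2.48 ± 0.25 in IP (edgeR adjusted p = 5.43e-05) and 2.18 ± 0.25 in IV (adjusted p = 0.00182), and 2.28 in IV without IV 4. The difference between routes, 0.29 ± 0.24, did not pass (adjusted p = 0.490), and was 0.19 without IV 4.

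Casp4 had 7.51, 11.2 and 13.9 CPM in PBS, levels close to those of Casp1. After IP transfer it had 96.4, 94.8 and 93.5 CPM, and after IV transfer 48.0, 63.9 and 38.2. The 3 IP libraries agreed within a few CPM and lay above all IV libraries. The log2 fold changes were 3.12 ± 0.24 in IP (edgeR adjusted p = 2.45e-05) and 2.19 ± 0.24 in IV (adjusted p = 0.00182; 2.34 without IV 4). IP exceeded IV by 0.93 ± 0.23 (adjusted p = 0.0263), or 0.77 (adjusted p = 0.0417) without IV 4. The call was lost without IP 2, IP 3, IP 4 or IV 1, with edgeR adjusted p-values of 0.0950, 0.0839, 0.0695 and 0.0669. Within a library the ratio of Casp4 to Casp1 was 1.07, 1.02 and 0.907 in PBS and 0.989, 1.05 and 0.882 in IV, and 1.58, 1.51 and 1.48 in IP. The IP ratios lay above those of both other groups (exact permutation p = 0.1, the smallest possible), while PBS and IV overlapped (exact p = 0.6).

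**Figure D3:**
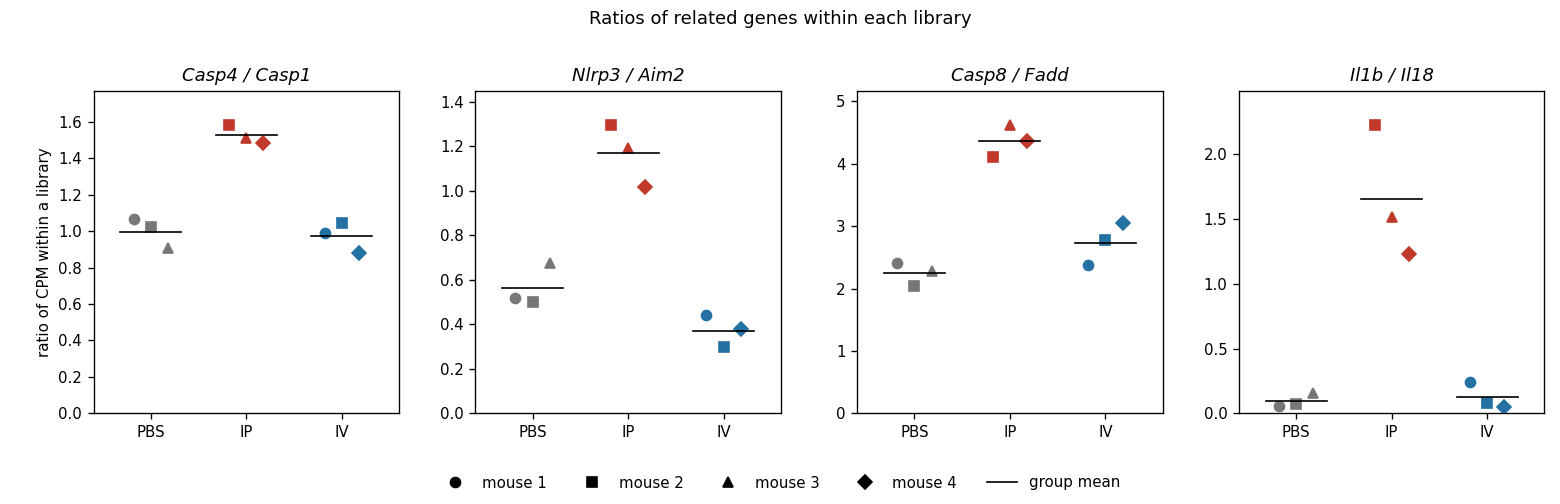
Ratios of CPM within each library (linear axis from 0) for 4 gene pairs, with 1 symbol a mouse and a line at the mean of 3 libraries. The IP libraries stand above PBS and IV in all 4 panels, while the IV libraries overlap PBS for Casp4 to Casp1, Casp8 to Fadd and Il1b to Il18 and lie below PBS for Nlrp3 to Aim2.

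Promoter sequences are given for Casp4 and Nlrp3, called higher in IP than in IV, and for Casp1, the neighbour of Casp4, which was not. Each is the 250 bases before a RefSeq start on GRCm38.p6, plus strand, 5′ to 3′, an assembly older than the one the submitters name. Capitals mark matches to the NF-kappaB consensus, searched on both strands.
Casp1, chr9:5298267-5298516: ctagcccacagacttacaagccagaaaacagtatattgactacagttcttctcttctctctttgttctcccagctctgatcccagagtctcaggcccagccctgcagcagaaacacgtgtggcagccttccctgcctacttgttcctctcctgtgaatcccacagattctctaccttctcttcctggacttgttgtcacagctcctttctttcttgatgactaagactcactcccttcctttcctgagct
Casp4, chr9:5308599-5308848: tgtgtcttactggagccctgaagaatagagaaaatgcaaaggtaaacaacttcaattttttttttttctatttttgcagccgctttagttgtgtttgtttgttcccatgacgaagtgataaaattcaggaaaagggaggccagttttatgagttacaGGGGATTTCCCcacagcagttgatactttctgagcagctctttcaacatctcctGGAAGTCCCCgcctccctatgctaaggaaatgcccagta
Nlrp3, chr11:59541319-59541568: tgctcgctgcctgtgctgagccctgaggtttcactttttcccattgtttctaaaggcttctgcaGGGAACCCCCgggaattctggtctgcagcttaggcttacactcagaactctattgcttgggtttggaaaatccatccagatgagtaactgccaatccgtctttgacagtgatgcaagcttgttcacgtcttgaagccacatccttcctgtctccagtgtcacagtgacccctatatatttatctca
In Casp4 there were 3 matches, 2 of which overlap (93 to 84, 92 to 83 and 39 to 30 bases before the start), and in Nlrp3 there was 1, at 186 to 177 bases before the more upstream of its 2 starts. None was found in Casp1, nor in Mlkl, the other member called higher in IP than in IV. Of the 10 members, 8 had a promoter entry, and windows of 250 bases before to 50 after the start were searched for all of their 10 starts. Besides those shown, no window held a match to that consensus, which occurs in 8.46% of all 32851 promoters. Letters of the interferon-response type, GAAANNGAA, were found only in Ripk3, after its start (8.56% of all promoters hold them), and those of the gamma-activated type, TTCNNNGAA, in no member (8.30% of all). A match is a description of letters, not a measured binding site. Gsdmd and Zbp1 had no entry.

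Gsdmd, whose cleaved product forms the pyroptotic pore, had fold changes close to those of Casp1. It stood at 14.6, 20.6 and 32.4 CPM in PBS, 147, 128 and 152 in IP, and 100.1, 109 and 88.6 in IV. The 3 groups did not overlap, with IP highest and PBS lowest. Against PBS it rose by 2.66 ± 0.25 in IP (edgeR adjusted p = 4.06e-05) and by 2.14 ± 0.25 in IV (adjusted p = 0.00182; 2.21 without IV 4). IP and IV differed by 0.52 ± 0.23, which did not pass (adjusted p = 0.192), and passed with only those 2 groups in the fit (adjusted p = 0.0339). Without IV 4 it was 0.45. The ratio of Gsdmd to Casp1 stayed between 1.79 and 2.42 in the 9 libraries, and the groups overlapped.

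The necroptosis genes moved in the same direction with different sizes. Ripk3, the kinase that activates MLKL, had 5.71, 7.64 and 11.6 CPM in PBS, 36.8, 34.5 and 42.6 in IP, and 21.3, 28.8 and 20.6 in IV. The groups were separate, with IV between the others. Its rise was 2.18 ± 0.25 in IP (edgeR adjusted p = 1.09e-04) and 1.48 ± 0.25 in IV (adjusted p = 0.00435; 1.56 without IV 4). IP against IV gave 0.70 ± 0.24 (edgeR adjusted p = 0.0936), which did not pass, and passed in 4 of 19 alternative settings. Among these were the DESeq2 Wald test (adjusted p = 0.0460), limma voom (adjusted p = 0.0459) and edgeR without PBS 3 (adjusted p = 0.0335). Without IV 4 the difference between the routes was 0.62 (edgeR adjusted p = 0.146).

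Mlkl, the executioner of necroptosis, was already the most abundant member per length in the PBS omenta. It had 80.2, 115 and 123 CPM in PBS, 399.9, 431 and 382 in IP, and 281, 248 and 282 in IV. No group overlapped another. It rose by 1.93 ± 0.17 in IP (edgeR adjusted p = 3.28e-05) and by 1.35 ± 0.17 in IV (adjusted p = 0.00185; 1.32 without IV 4). IP exceeded IV by 0.58 ± 0.16 at an adjusted p of 0.0487, close to the threshold, and by 0.62 without IV 4. The call was lost without PBS 2, IP 2, IP 3, IP 4, IV 1 or IV 2, with edgeR adjusted p-values of 0.0662 to 0.174. It was also lost with DESeq2 size factors (0.0538), library totals (0.0950), limma on the deposited log2 CPM (0.0902) and no filter (0.0862), and in 11 of 19 alternative settings in all. Mlkl CPM were 8.60 to 15.0 times those of Ripk3 in the 9 libraries, with no separation by group.

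Zbp1, the nucleic acid sensor, showed the largest rise and the largest spread among the PBS mice. Its levels were 19.9, 89.3 and 142 CPM in PBS 1, 2 and 3, 1015, 1025 and 960.3 in IP, and 832, 788 and 656 in IV. The PBS libraries differed among themselves by 7.14-fold, against 1.07-fold within IP and 1.27-fold within IV, and no treated library came near them. The log2 fold change was 3.57 ± 0.57 in IP (edgeR adjusted p = 0.00108) and 3.18 ± 0.56 in IV (adjusted p = 0.00649; 3.26 without IV 4, adjusted p = 0.0213). With no filter on low counts the IV call was lost (adjusted p = 0.0539). IP and IV differed by 0.40 ± 0.51 (adjusted p = 0.688), and by 0.31 without IV 4.

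Casp8, which starts apoptosis at death receptors and restrains RIPK3, moved least. It had 82.9, 90.9 and 79.6 CPM in PBS, 112, 123 and 111 in IP, and 92.2, 99.8 and 96.9 in IV. The groups were ordered PBS, IV, IP without overlap, though IV 1 exceeded PBS 2 by little more than 1 CPM. IP against PBS gave 0.45 ± 0.11 (edgeR adjusted p = 0.00742), and IV against PBS 0.19 ± 0.11 (adjusted p = 0.255; 0.18 without IV 4). IP against IV gave 0.26 ± 0.11 (adjusted p = 0.144; 0.27 without IV 4). The IP call was lost with library totals in place of TMM scaling (0.29, adjusted p = 0.0608), with limma on the deposited log2 CPM (0.29, adjusted p = 0.0668) and with no filter (0.39, adjusted p = 0.0757). Scaling by library totals moved the median of all genes to -0.149 in IP against PBS. A change of scaling shifts all genes by about the same amount, so the distance of Casp8 from that median cannot decide between the settings.

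Within a group the same library was often the lowest or the highest. PBS 1 had the lowest PBS value for 9 of 10 genes and PBS 3 the highest for 9 of 10. In IV, IV 2 was highest for 7 and IV 4 lowest for 6. Within IP no library was highest for more than 4 of the 10, and IP 4 was lowest for 6. The share of all genes with the same order of libraries was not computed. Whether these counts are particular to the members was therefore not tested.

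Per kilobase of annotated exon, the order of the levels changed with treatment. The length used is the union of all annotated exons of a gene, 3800 bases for Pycard. A gene transcribed mainly in a shorter form is placed too low by it. In PBS the mean level ran Mlkl, Casp8, Zbp1, Gsdmd, Casp1, Pycard, Ripk3, Casp4, Aim2 and Nlrp3, from 46.0 ± 9.82 to 0.703 ± 0.358 CPM per kb (SD, n = 3). Compared across mice, Mlkl lay above Casp8 and Casp4 above Aim2 in all PBS libraries, and the ranges of all other neighbours in that order overlapped. Within each PBS library, Gsdmd also lay above Casp1, Casp1 above Pycard, Ripk3 above Casp4 and Aim2 above Nlrp3. After IP transfer Zbp1 led with 283 ± 9.84 CPM per kb, ahead of Mlkl (176 ± 10.8) and Gsdmd (60.0 ± 5.25). Casp1 and Casp8, Pycard and Ripk3, and Nlrp3 and Aim2 were neighbours that overlapped. The first 5 after IV transfer were the same as after IP, with Zbp1 at 215 ± 26.0 CPM per kb, and Nlrp3 was last at 1.55 ± 0.337. In that group the range of Gsdmd overlapped that of Casp1, Casp1 overlapped Casp8, Pycard overlapped Casp4, and Casp4 overlapped Ripk3. Within each IV library, though, Gsdmd lay above Casp1 and Casp4 above Ripk3.

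Leukocyte transcripts rose in the same libraries. Ptprc, which encodes the pan-leukocyte surface protein CD45, had 55.3, 67.3 and 122 CPM in PBS, 191, 201 and 201 in IP, and 107, 219 and 296 in IV. IP lay above PBS, and IV 1 lay within the PBS range. Ptprc rose by 1.27 ± 0.36 in IP (edgeR adjusted p = 0.0187) and 1.34 ± 0.36 in IV (adjusted p = 0.0294). The IP call was lost without PBS 1, PBS 2, IP 3 or IP 4 (adjusted p up to 0.104), and the IV call without PBS 1, PBS 2, IP 2, IP 3, IV 2 or IV 4 (adjusted p up to 0.128). Divided by Ptprc within each library, 9 of 10 members were higher in every IP than in every PBS library, and Casp8 was lower. In IV only Zbp1 exceeded PBS in this ratio without overlap, at 7.79, 3.60 and 2.21 against 0.360, 1.33 and 1.16, and the other 9 overlapped. For Gsdmd the ratio was 0.937 in IV 1, 0.499 in IV 2 and 0.299 in IV 4, against 0.264 to 0.306 in PBS. The share of all genes that separate in this way after division by Ptprc was not computed. Whether these counts are particular to the members was therefore not tested.

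Markers of separate leukocyte types, many of which express these genes, changed too. Over all genes tested, 18.7% were called higher and 14.2% lower in IP against PBS, and 10.4% and 5.66% in IV against PBS. Of 10 macrophage markers, 6 were called higher and 3 lower in IP and 5 higher in IV, with summed levels of 649 to 1085 CPM in PBS, 1594 to 1714 in IP and 1564 to 1943 in IV. Of 8 monocyte markers, 6 were higher in IP and 3 in IV (505 to 978 CPM summed in PBS, 1941 to 2311 in IP, 1013 to 1508 in IV). Of 8 neutrophil markers, 7 were higher in IP and 2 in IV (11.98 to 25.9, 143 to 182 and 35.1 to 188 CPM). Of 9 T cell markers, 6 were higher in IP and 7 in IV (45.7 to 116, 245 to 281 and 125 to 330 CPM). Of 6 dendritic cell markers 2 were higher in IP and 3 in IV (18.2 to 30.3, 50.01 to 57.1 and 40.2 to 86.8 CPM), and of 5 NK cell markers 1 and 3 (10.95 to 34.98, 59.1 to 65.04 and 38.1 to 114 CPM). Of 6 B cell markers 1 was lower in IP and 6 were higher in IV (51.01 to 60.3, 32.4 to 58.4 and 118 to 432 CPM). Melanoma genes moved the other way, with 5 of 7 lower in IP and 3 in IV. No leukocyte marker of these lists was at 0 in a whole group. Their part in the rise of the 10 genes was not tested.

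Other genes that feed or regulate inflammasomes rose as well. Of 30 tested, 22 rose in IP (all genes 18.7%) and 15 in IV (all genes 10.4%), and none was called lower by edgeR (all genes 14.2% and 5.66%). The IV count was 9 without PBS 1, PBS 2 or IV 2. Without IV 4, 13 rose in IV, and 2 were called lower in each of the 2 comparisons. The single IV calls given below for other genes held without IV 4 except where it is named. Casp12, which lies beside Casp1 and Casp4, rose from 3.25, 5.22 and 9.23 CPM in PBS to 70.5, 66.0 and 64.9 in IP and 27.3, 31.6 and 36.8 in IV (3.50 ± 0.32, edgeR adjusted p = 3.53e-05, and 2.42 ± 0.31, adjusted p = 0.00193). Its groups did not overlap. Sting1, the adaptor of cytosolic DNA sensing, rose by 1.80 ± 0.14 in IP and 1.24 ± 0.14 in IV. The DNA-sensor relatives of Aim2, Ifi204 and Ifi205, rose by 3.31 ± 0.30 and 3.35 ± 0.32 in IP, and by 2.07 ± 0.29 and 2.01 ± 0.31 in IV, though reads of this gene family may be split between near-identical copies. Irf1, a transcription factor induced by interferon, had 31.1, 125 and 178 CPM in PBS, 1218, 1174 and 1149 in IP, and 639, 609.7 and 588 in IV. It rose by 3.41 ± 0.49 (adjusted p = 4.66e-04) and 2.46 ± 0.47 (adjusted p = 0.00817), and the latter was lost without PBS 2 (adjusted p = 0.0523). Like Zbp1, it was lowest in PBS 1.

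Genes of the pore and of the IL-1 family divided by route. Of 12 tested, 9 rose and 2 fell in IP (all genes 18.7% and 14.2%), while 4 rose in IV (all genes 10.4%). The count in IV was 7 without IV 4, and 2 without PBS 1 or IV 2. Il1b, the substrate of caspase-1, had 0.901, 1.19 and 2.32 CPM in PBS, 47.2, 32.7 and 25.5 in IP, and 7.53, 2.40 and 1.32 in IV. IP lay far above the others, and PBS and IV overlapped. It rose by 4.55 ± 0.62 in IP against PBS (edgeR adjusted p = 3.76e-04) and was 3.19 ± 0.59 higher in IP than in IV (adjusted p = 0.00819). Il18, the other substrate, had 15.3, 16.5 and 15.1 CPM in PBS, 21.2, 21.6 and 20.7 in IP, and 31.3, 30.4 and 27.7 in IV, so that IV was the highest group. It rose by 0.44 ± 0.12 in IP (adjusted p = 0.0163, lost without PBS 1, PBS 3, IP 2 or IP 3, up to 0.0695) and by 0.93 ± 0.12 in IV (adjusted p = 0.00203). The ratio of Il1b to Il18 was 1.23 to 2.22 in IP and at most 0.241 elsewhere.

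The antagonists of these cytokines were among the rises. Il1rn, which encodes the IL-1 receptor antagonist, had 1.502, 4.26 and 6.93 CPM in PBS, 328, 298 and 245 in IP, and 26.7, 11.5 and 9.88 in IV. It rose by 6.09 ± 0.61 in IP (edgeR adjusted p = 1.10e-04), and its rise of 1.92 ± 0.53 in IV (adjusted p = 0.0384) was lost without PBS 1, PBS 2, IV 1, IV 2 or any 1 of the IP libraries (adjusted p up to 0.133). Il1r2, a decoy receptor, rose by 4.15 ± 0.52 in IP. Il18bp, which binds IL-18, rose by 3.30 ± 0.45 in IP and 3.23 ± 0.45 in IV, to 166 to 175 and 145 to 174 CPM. Il33, an alarmin released by damaged cells, rose by 2.37 ± 0.23 in IP and 0.86 ± 0.22 in IV (adjusted p = 0.0244, lost without PBS 1 or IV 2, up to 0.0868). Ninj1, whose product ruptures the membrane after pore formation, went from 71.5, 79.8 and 73.3 CPM to 203, 181 and 179 in IP (1.33 ± 0.23, adjusted p = 0.00137), with 144, 97.3 and 65.2 in IV. The gasdermin Gsdme had 21.3, 26.6 and 18.0 CPM in PBS, 17.8, 17.6 and 16.9 in IP and 30.3, 26.4 and 16.3 in IV, and no comparison of it passed. The 2 genes that fell in IP were the gasdermin Gsdmc (-1.86 ± 0.30, adjusted p = 7.90e-04) and Hmgb1, an alarmin (-0.65 ± 0.16, adjusted p = 0.0100), both named after their values were seen.

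**Figure D4:**
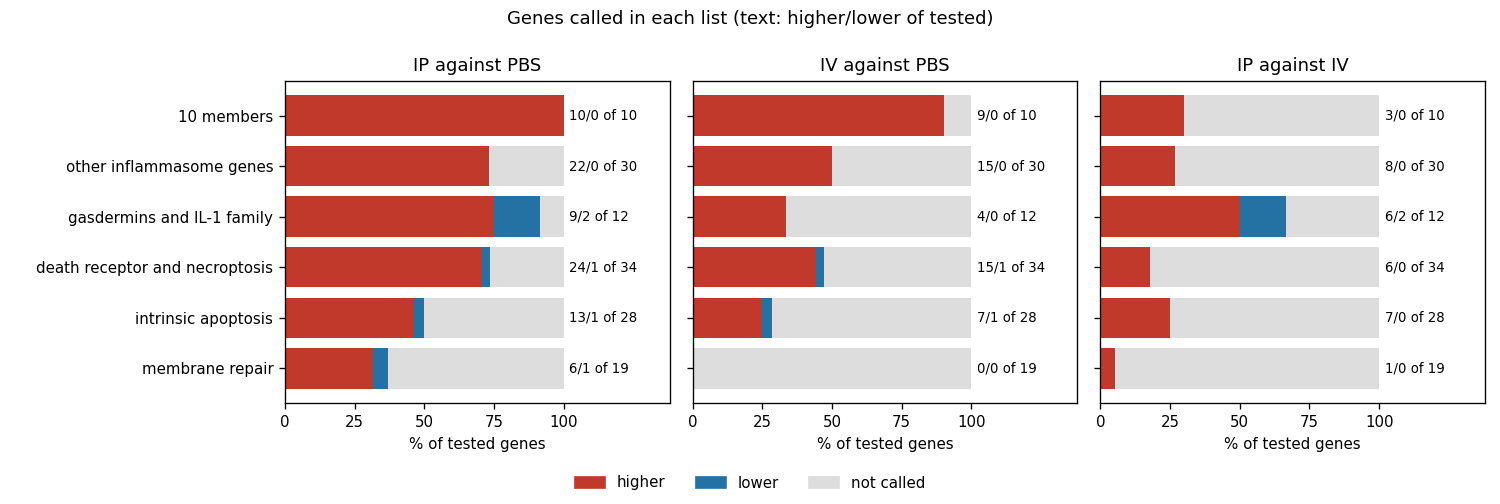
Share of tested genes called higher, lower or not called by edgeR (adjusted p below 0.05) in the 10 members and 5 lists of related genes, for each comparison, with the numbers higher and lower of those tested beside each bar. Rises make up most of the calls, and the membrane repair list has none in IV against PBS.

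Upstream of RIPK3, most death receptor and ubiquitin genes rose after IP transfer, and the adaptor Fadd fell. Of 34 tested, 24 rose and 1 fell in IP (all genes 18.7% and 14.2%), and 15 rose and 1 fell in IV (all genes 10.4% and 5.66%). The rises in IV numbered 5 without PBS 1, 6 without PBS 2 and 8 without IV 2. They numbered 10 without IV 4 or any 1 of the IP libraries, which share the estimate of spread. The 1 that fell in IV was Map3k7, a kinase of the TNF pathway (-0.45 ± 0.13, adjusted p = 0.0423), named after its values were seen. Without any 1 of the other 8 libraries no gene of the list was called lower in IV by edgeR, and without IV 4, 2 were. Ripk1, the kinase partner of RIPK3, rose by 0.97 ± 0.12 in IP (edgeR adjusted p = 1.99e-04) and 0.54 ± 0.12 in IV (adjusted p = 0.0163, lost without PBS 1 or PBS 2, up to 0.0875). Fadd, the adaptor that brings caspase-8 to death receptors, was the 1 that fell in IP, from 34.4, 44.5 and 34.9 to 27.4, 26.6 and 25.5 CPM (-0.52 ± 0.14, adjusted p = 0.0149, lost without IP 3 or IP 4, up to 0.0609). In IV it had 38.7, 35.9 and 31.8 CPM. As Casp8 rose and Fadd fell, their ratio was 4.11 to 4.62 in IP and 2.04 to 2.41 in PBS, with 2.38 to 3.05 in IV. Cflar, which encodes the caspase-8 inhibitor FLIP, rose by 0.94 ± 0.24 in IP (adjusted p = 0.0111, and 0.0509 without PBS 2). The ratio of Casp8 to Cflar went the other way, with 0.434 to 0.514 in IP and 0.542 to 1.03 in PBS. In IV it was 0.479 to 0.890, which overlapped both.

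Receptors and ligands of this pathway had larger changes. Fas, a death receptor, had 3.14, 6.10 and 5.91 CPM in PBS, 35.0, 33.5 and 32.4 in IP, and 13.5, 17.9 and 12.3 in IV. The groups were separate, and IP exceeded IV by 1.23 ± 0.24 (edgeR adjusted p = 0.00980). Tnfsf10, the gene of the ligand TRAIL, rose by 2.91 ± 0.41 in IP and 2.6 ± 0.41 in IV. Tnfrsf1a, the main TNF receptor, rose by 1.11 ± 0.14 in IP and 0.55 ± 0.14 in IV (adjusted p = 0.0216, lost without PBS 1, PBS 2 or IV 1, up to 0.102). Tnfaip3, which encodes the ubiquitin-editing inhibitor A20, had 6.64, 8.48 and 14.8 CPM in PBS, 65.5, 50.01 and 50.7 in IP, and 13.2, 17.1 and 20.8 in IV, and was higher in IP than in IV by 1.70 ± 0.28 (adjusted p = 0.00457). Rnf31, the catalytic subunit of the linear ubiquitin ligase, rose by 1.75 ± 0.17 and 1.23 ± 0.17, and the ubiquitin ligase gene Birc2 by 1.00 ± 0.16 and 0.86 ± 0.16. Adar, whose product removes ligands of ZBP1 by editing RNA, rose by 1.01 ± 0.18 in IP (adjusted p = 0.00180) and by 0.65 ± 0.18 in IV (adjusted p = 0.0375, lost without PBS 1, PBS 2, IP 2, IP 3, IP 4, IV 2 or IV 4, up to 0.158).

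The genes with the most similar profiles over the 9 libraries were found by the root mean square difference of centred log2 CPM among 10967 genes with a mean of at least 5 CPM. Nearest were Snx6 to Casp8 (0.058), Samhd1 to Gsdmd (0.080), Sh3bp2 to Ripk3 (0.086) and Trim12a to Casp1 (0.092). For Zbp1 the nearest were the interferon-inducible GTPase genes Igtp (0.113) and Ifi47 (0.179), and for Nlrp3 they were Jun (0.140) and Tnfaip3 (0.192). Mlkl was nearest to Rmdn3 (0.113) and Parp12 (0.121), Aim2 to Btk (0.138) and Cd160 (0.164), Casp4 to Cd86 (0.160) and Phf11a (0.166), and Pycard to the myeloid genes Tyrobp (0.190) and Lyz2 (0.220). The second nearest were Capza2 for Casp8 (0.063), Oas2 for Gsdmd (0.133), Ctsh for Ripk3 (0.115) and H2-M3 for Casp1 (0.106). These are descriptions of 9 libraries that share their groups.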

How the data were processed

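Libraries of poly(A) RNA were made with a directional kit, per the labels' protocols. The submitters' processing notes name STAR 2.7.9, featureCounts, limma and mm39; the labels and files used here do not state the annotation or the strand setting. The authors deposited whole-number counts of 55359 genes and a table of log2 CPM for 18833 genes, in which only library totals were scaled. Symbols came from GENCODE M21. The counts were fitted in edgeR 4.0.16 (R 4.3.3): filterByExpr left 17123 genes, TMM scaling, 9 libraries in 1 robust quasi-likelihood fit without covariates, two-sided tests, Benjamini-Hochberg adjustment, threshold 0.05. The SE was taken from the fold change and the F statistic, as its size over the root of F. Lengths are unions of GENCODE M21 exons. Alternatives used DESeq2 1.42.0 and limma 3.58.1 among 19 settings, 1 of them, the acinar level as a covariate, chosen after seeing the data. The code was tested on simulated data.

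The members and gene lists were chosen with earlier results of these data known. Other genes are named where they had 1 of the 4 smallest p in IP or IV against PBS in their list, or from a list of 10 given whatever their result; exceptions are marked, and not every gene that the rule takes is reported here. Each library is labelled as a separate mouse. The edgeR p-values rest on the spread between libraries within groups, pooled for each gene over the 3 groups and drawn toward that of other genes.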

Additional observations from a re-analysis of the deposited data

Results flagged for a closer look

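The IP against IV test also compares the changes that the routes made against PBS, and 20 of the named genes differed in it (edgeR adjusted p below 0.05). Of all genes tested, 10.4% were called in it in either direction. Most named genes other than the members were chosen by a small p against PBS in these data, so the 20 are no measure of the pathways. Among the 10 members the genes that differed were Nlrp3, at 1.74 on the log2 scale, Casp4, at 0.93, and Mlkl, at 0.58. All 3 were higher in IP. The Nlrp3 call held in all 19 alternative settings, while that of Casp4 was lost in 5 and that of Mlkl in 11.

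Differences in the IL-1 family were 4.16 for Il1rn, 3.19 for Il1b, 3.02 for Il1r2 and 1.51 for Il33, each kept without any 1 library. The Il1b call was lost with no filter on low counts (adjusted p = 0.0798), and those of Il1rn and Il1r2 were lost in 1 setting each, given with the alternatives. Il18 stood the other way, at -0.49, and its call was lost without IP 2, IP 3, IP 4, IV 1 or IV 2 (adjusted p up to 0.118). Ninj1 differed by 0.88, lost without IP 2, IP 3, IP 4 or IV 2 (up to 0.135).

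Among inflammasome genes the differences were 1.33 for Ifi205 (lost without IP 2, IP 3, IV 1 or IV 4, up to 0.0728), 1.24 for Ifi204 (lost without IP 2, IP 3, IV 2 or IV 4, up to 0.0728), 1.07 for Casp12 (lost without any library but PBS 1 and PBS 3, up to 0.137) and 0.56 for Sting1 (lost without IP 2, IP 3, IP 4 or IV 2, up to 0.101).

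In the death receptor and apoptosis lists, Pmaip1 differed by 2.06, Tnfaip3 by 1.70, Bcl2a1b by 1.43, Bcl2l1 by 1.35 and Fas by 1.23, each kept without any 1 library. Tnfrsf1a differed by 0.55, lost without IP 2, IP 3, IP 4 or IV 2 (up to 0.113). Chmp7, of the membrane repair list, differed by 0.42, lost without PBS 1, IP 2, IP 3, IP 4, IV 1 or IV 2 (up to 0.137).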

How the results depend on the processing

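Of the 10 members, all passed in IP against PBS under every 1-library omission and 9 of 10 or 10 of 10 in the other settings; in IV against PBS 8 or 9 passed when 1 library was left out. With 1 library left out, genes called ranged from 3956 to 6569 (IP against PBS), 980 to 4580 (IV against PBS, the lowest without PBS 1, the highest without IV 4) and 673 to 2873 (IP against IV), and members called in IP against IV from 1 to 4. Other counts that moved over 1.5 times were 2765 genes for IP against IV with the DESeq2 Wald test, 1210 for IV against PBS and 5 members for IP against IV with only the 2 groups compared, and 1373 for IV against PBS with the acinar level as a covariate. The cause was not tested.

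Mouse numbers did not pair the libraries: in 6 same-number pairs r ran from -0.401 to 0.0756. With the replicate block, 1134 genes and 1 member were called in IP against IV, and the calls of Casp8 in IP against PBS (adjusted p = 0.0570), Casp4 (0.0501), Mlkl (0.252), Il1rn (0.0977) and Il1r2 (0.113) in IP against IV were lost.

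Small uncalled differences between IP and IV changed sign. Aim2 gave -0.11 with library totals, -0.03 with limma on deposited log2 CPM, 0.00 with no filter, -0.01 with CPM of at least 1 in at least 3 libraries, -0.22 with the replicate block and -0.25 without IV replicate 1; leaving out 1 library gave -0.25 to 0.32. Zbp1 gave -0.13 with the replicate block and Pycard -0.13 without IV replicate 4 and up to 0.31 without IV replicate 1. Scaling by library totals moved the median of all genes from 0.0199 to -0.149 in IP against PBS. It went from 0.0427 to -0.0271 in IV against PBS and from -0.0163 to -0.116 in IP against IV. In that order, higher genes made up 40.9%, 54.6% and 41.0% of the calls, in place of 56.8%, 64.8% and 57.0%. With library totals, 9 members passed in IP against PBS and 8 in IV against PBS, where Nlrp3 gave an adjusted p of 0.0707. IV 2, at 7379798 counts, limits the IV values of low genes such as Nlrp3 (56 counts).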

Other observations

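Genes of the mitochondrial route of apoptosis changed in part. Of 28 tested, 13 were called higher and 1 lower in IP against PBS (edgeR, all genes 18.7% and 14.2%). In IV 7 were called higher and 1 lower (all genes 10.4% and 5.66%). The 1 lower gene was Parp1, a DNA repair gene named after its values were seen, at -0.75 ± 0.12 in IP (adjusted p = 7.79e-04) and -0.41 ± 0.12 in IV (adjusted p = 0.0388). No gene of the list was called lower in IV without PBS 1, PBS 2, PBS 3, IP 2, IP 3, IP 4 or IV 1, and 2 were without IV 4. Bcl2l1, which encodes the survival protein BCL-XL, had 80.9, 89.8 and 94.8 CPM in PBS, 267, 221 and 198 in IP, and 98.2, 81.0 and 90.1 in IV, and rose by 1.37 ± 0.14 in IP (adjusted p = 6.38e-05). PBS and IV overlapped. Pmaip1, the gene of the death-promoting protein NOXA, had 2.57, 4.30 and 4.98 CPM in PBS, 34.7, 27.2 and 24.1 in IP, and 5.97, 6.27 and 8.24 in IV, and rose by 2.86 ± 0.26 in IP (adjusted p = 3.91e-05). Bcl2a1b and Bcl2a1d, survival genes with near-identical copies whose reads may be split, rose by 3.10 ± 0.27 and 3.00 ± 0.33 in IP and by 1.67 ± 0.26 and 2.02 ± 0.33 in IV. The pore-forming Bak1 rose by 0.89 ± 0.15 in IP and in IV.

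Of 19 genes that repair membranes, 6 were called higher and 1 lower in IP (2 higher without PBS 1, 3 without PBS 3, IP 2 or IP 4, 4 without IP 3). Calls in either direction made up 32.9% of all genes tested (18.7% higher, 14.2% lower), so their number does not set this list apart. The lower gene, Chmp6, was not called without PBS 1, PBS 2, IP 2, IP 3 or IP 4, and 2 genes were called lower without PBS 3 or IV 4. In IV none of the 19 was called by edgeR, 3 had an unadjusted p below 0.05, and the DESeq2 Wald test called 2. Chmp4b, a filament-forming subunit of the repair machinery, rose from 228, 315 and 250 to 588, 559 and 532 CPM in IP (1.08 ± 0.17, adjusted p = 8.76e-04), and the membrane-binding annexin gene Anxa6 from 238, 234 and 259 to 358, 361 and 353 (0.55 ± 0.12, adjusted p = 0.00549).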
